A study of Homo sapiens with 6 samples.

Results

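The Frizzled genes encode the cell-surface receptors for Wnt proteins, and all 10 human members, FZD1 to FZD10, were measured in U87 cells with and without a knockdown of PCGF1. The members were taken by name, as the probe sets whose platform annotation gives 1 gene symbol and that symbol is a Frizzled gene, which gave 25 of 44988 single-symbol probe sets and 10 of 18132 genes. The family was selected on earlier results of the same comparison, in which FZD2 was among the largest rises, so the differences of its members, and which of them were called in the fit over all genes, are given as a description with no p-value and support nothing. U87 is an established human glioma line. The study put total RNA on 6 Affymetrix arrays, 3 from U87 cells transduced with a lentiviral PCGF1 shRNA (U87-PCGF1-shRNA) and 3 from U87 cells with the negative control virus (U87-NC), both grown in DMEM with 10% fetal bovine serum. PCGF1 is the RING finger subunit that defines the Polycomb complex PRC1.1, and the comparison asks which genes differ when it is reduced. The sample titles call the replicates biological. The sources used here do not say whether the lines were clones or pools or whether the replicates were separate cultures. How far the spread between arrays is technical is therefore not known. Sample names carry T0 on every knockdown array and T1 on every control array without explanation, so the knockdown and what these marks stand for cannot be told apart.

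A Frizzled protein has an extracellular cysteine-rich domain that binds the lipid of a Wnt protein, a bundle of membrane-spanning helices and a short tail that recruits Dishevelled inside the cell. With the co-receptor LRP5 or LRP6 this stabilises beta-catenin, which then acts with TCF/LEF factors on target genes; with ROR, RYK or planar polarity proteins the same receptors act on the cytoskeleton and on calcium. By sequence the family falls into 4 groups of close relatives, namely FZD1, FZD2 and FZD7, then FZD5 and FZD8, then FZD4, FZD9 and FZD10, and FZD3 with FZD6. Gliomas are known to use both arms of Wnt signalling.

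Each value is a log2 signal minus the median of that probe set over the 6 arrays. The deposited table was centred in this way, so it holds differences between arrays and neither the brightness of a probe set nor its distance from background. Whether a Frizzled gene is expressed in these cells, and which one most, cannot be read from it, and neither can the labelled cell type be checked by its markers. PCGF1 itself stood at -0.27, -0.13 and -0.19 on the knockdown arrays and at 0.13, 0.27 and 0.29 on the control arrays. This places the knockdown at 74.3% of the control level, read from 1 probe set. Among 19 measured markers of leukocytes, epithelial, endothelial and glial cells, 0 passed limma's test and 2 had an unadjusted p under 0.05, EPCAM with a difference of 0.29 and PECAM1 with -0.21, where 26.6% of all genes were under that p. The signal of a 3' control probe set less that of the 5' one is a sign of RNA integrity. For ACTB it was 0.11, 0.06 and 0.01 on the knockdown arrays and -0.03, 0.04 and -0.07 on the control arrays. For GAPDH it was 0.044, 0.018 and -0.008 against -0.002, 0.010 and -0.014. In both genes the ranges overlapped, but knockdown arrays 1 and 2 lay above every control array. Whether this bears on the differences was not tested. All 6 arrays were used.

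FZD2 and FZD1 were higher in the knockdown arrays, FZD6 was lower, and the differences of the other 7 members lay between -0.07 for FZD8 and 0.10 for FZD7 on the log2 scale. At an adjusted p under 0.05 in the limma fit over all genes, 2 members were called higher and 1 lower, 3 of 10, where 11% of all genes were called (6.36% higher and 4.63% lower). Since the family was chosen with this comparison known, nothing is read from that count. The groups did not overlap for 5 of the 10 members, 4 higher and 1 lower, and did not overlap for 32.7% of all genes. The median difference of the family, knockdown minus control, was 0.02, beside -0.01 over all genes, and the median size of the difference regardless of sign was 0.06 beside 0.07. Both medians were thus close to those of all genes, and the family ran from FZD6 at -0.21 to FZD2 at 0.81.

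**Figure D1:**
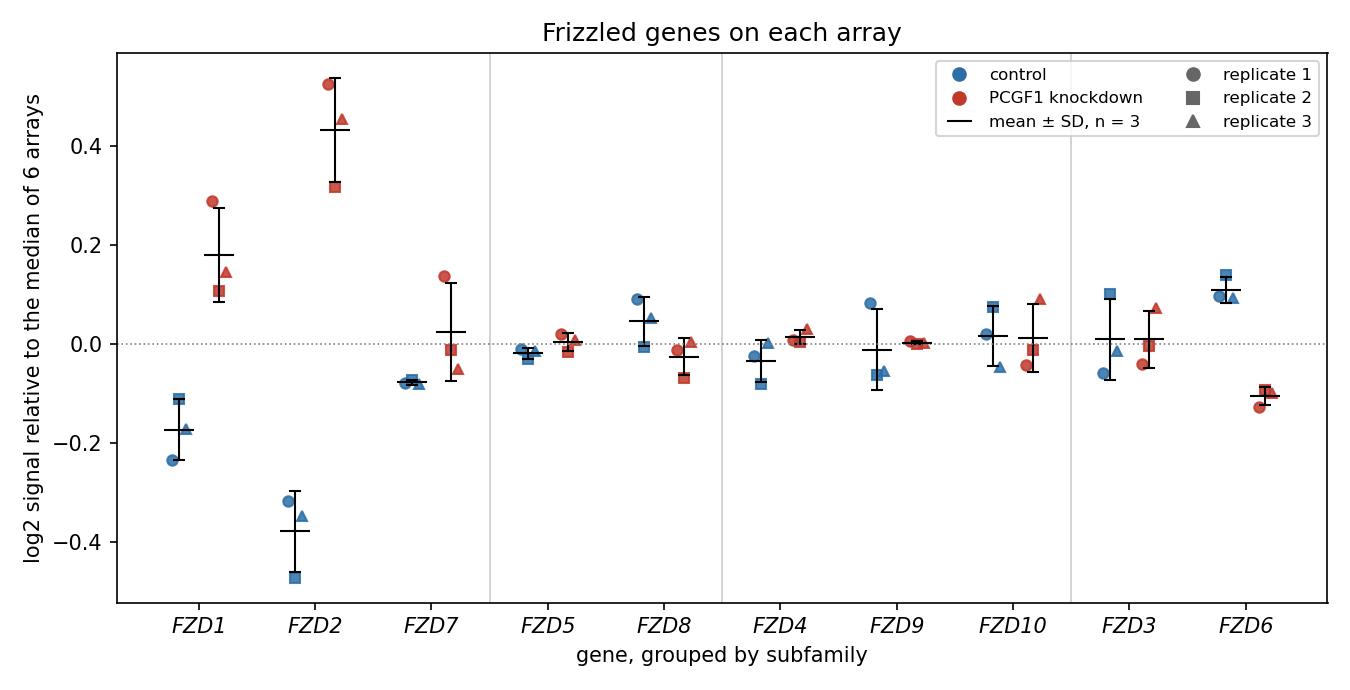
Log2 signal of the 10 Frizzled genes relative to the median of the 6 arrays (vertical axis) on each control array (blue) and PCGF1 knockdown array (red), with the mean and SD of 3 arrays in black, marker shape for the replicate number and grey lines between the groups of close relatives. FZD1 and FZD2 are separated upward and FZD6 downward, while the points of most other members lie on both sides of 0.

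FZD2 (gene ID 2535), a receptor used by WNT5A and WNT3A among others, had the largest difference in the family. Its log2 signal was 0.52, 0.32 and 0.45 on knockdown arrays 1 to 3 and -0.32, -0.47 and -0.35 on control arrays 1 to 3. Every knockdown array was above every control array, with 0.63 between the nearest pair. The difference was 0.81 ± 0.06 (SE, limma), from group means of 0.43 ± 0.10 and -0.38 ± 0.08 (SD, n = 3 each), or 1.75-fold. In bulk RNA a change in every cell and a change in the share of cells with the transcript cannot be told apart. By size it was number 4 among the 18132 genes on the higher side. The value rests on 1 probe set. With 1 probe set and separated groups, the array just above and the array just below the median are mirror values by the centring, here 0.32 for knockdown array 2 and -0.32 for control array 1.

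FZD1 (gene ID 8321), a close relative of FZD2 that couples to beta-catenin signalling, came next. Knockdown arrays read 0.29, 0.11 and 0.14, and control arrays -0.23, -0.11 and -0.17. The groups were again fully separated, with a gap of 0.22. The difference was 0.35 ± 0.06 (SE, limma) or 1.28-fold, number 211 on the higher side. Both of its probe sets gave nearly the same difference, 0.35 and 0.36, and were separated in each case.

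FZD7, the third of these relatives and a receptor known in stem cells and in gut epithelium, was much closer to 0. Its knockdown arrays read 0.14, -0.01 and -0.05 and its control arrays -0.08, -0.07 and -0.08. The groups did not overlap, but the nearest arrays were only 0.02 apart, and knockdown array 1 lay well above the other two. The difference of 0.10 ± 0.05 (SE, limma) did not pass the threshold. Its 3 probe sets disagreed, at -0.06, 0.15 and 0.22, and only the last had separated groups. With the most variable of the 3 in place of the average the difference was -0.06, so no direction can be given for FZD7. On knockdown array 1 all 3 relatives had their highest value.

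FZD6 (gene ID 8323), which is known for planar polarity in skin and hair and can oppose beta-catenin signalling, was the only member called lower. It stood at -0.13, -0.09 and -0.10 on the knockdown arrays and at 0.10, 0.14 and 0.09 on the control arrays. The arrays within each group were tight, with SDs of 0.02 and 0.03, and the gap between groups was 0.18. The difference was -0.21 ± 0.04 (SE, limma), or 0.862 times the control level. Both probe sets were lower and separated, at -0.18 and -0.25. It was number 632 on the lower side, so many genes fell further.

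FZD3, the closest relative of FZD6 and a receptor for axon guidance, lay at 0. Its arrays read -0.04, 0.00 and 0.07 in the knockdown and -0.06, 0.10 and -0.01 in the control, so the groups lay across each other. The average of 3 probe sets differed by 0.00 ± 0.05 (SE, limma). That average hides probe sets at -0.11, 0.05 and 0.05, all with overlapping groups.

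FZD5 and FZD8 were near 0. FZD5, known for roles in the eye and in gut Paneth cells, read 0.02, -0.02 and 0.01 on the knockdown arrays and -0.01, -0.03 and -0.02 on the control arrays, a difference of 0.02 ± 0.04 (SE, limma). It has 5 probe sets, the most of any member, and they ranged from -0.13 to 0.18 with 2 below 0 and 3 above, all with overlapping groups. The probe set at 0.18 is the most variable of the 5, so the size of the FZD5 value depends on which probe set is read. FZD8 read -0.01, -0.07 and 0.00 against 0.09, -0.01 and 0.05, a difference of -0.07 ± 0.04. Both of its probe sets were lower, at -0.05 and -0.09, and the groups were separated in the first of them only.

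FZD4, the receptor for Norrin in retinal vessels, read 0.01, 0.00 and 0.03 on the knockdown arrays and -0.02, -0.08 and 0.00 on the control arrays. The groups did not overlap, yet the nearest arrays were 0.0012 apart, and the difference was 0.05 ± 0.04 (SE, limma). Its 3 probe sets ran from 0.00 to 0.11. FZD9, which lies in the chromosome region deleted in Williams syndrome, was nearly flat on the knockdown arrays at 0.00 each and scattered on the control arrays at 0.08, -0.06 and -0.05. Its difference was 0.01 ± 0.05, from 1 probe set. FZD10, of which little is found in most adult tissues, read -0.04, -0.01 and 0.09 against 0.02, 0.07 and -0.05, a difference of 0.00 ± 0.05 with probe sets at -0.11, 0.02 and 0.07.

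**Figure D2:**
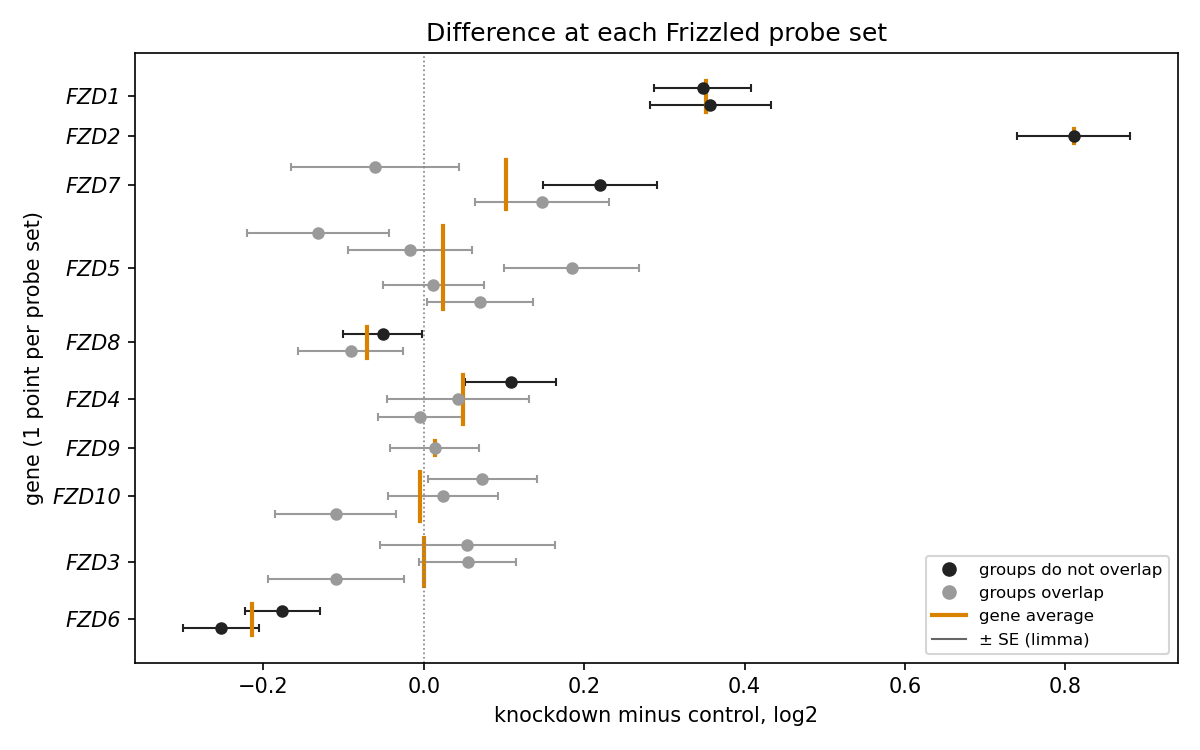
Knockdown minus control difference (log2, horizontal axis) at each of the 25 Frizzled probe sets, with limma's SE as bars, black points where the 2 groups do not overlap and an orange line at the average of each gene. The probe sets of FZD1 and of FZD6 fall together, while those of FZD5 spread from -0.13 to 0.18 and those of FZD7 from -0.06 to 0.22.

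Ordered by difference, the members ran FZD2, FZD1, FZD7, FZD4, FZD5, FZD9, FZD3, FZD10, FZD8 and FZD6. The steps from FZD2 to FZD1 and from FZD1 to FZD7 were 0.46 and 0.25, and that from FZD8 to FZD6 was 0.14, each larger than the SE of either neighbour. Between FZD7 and FZD10 the steps were between 0.0042 and 0.0531 and within the larger SE of each pair. The order of neighbours among these 6 is thus not resolved. Each SE is that of a gene's own difference and not of a step between genes. The step from FZD10 to FZD8 was 0.07. Of the 25 probe sets, 15 were higher and 10 lower in the knockdown, and the groups were separated for 8 of them, 5 higher and 3 lower, against 29.7% of all single-symbol probe sets. Probe sets of the same gene differed by 0.01 for FZD1, 0.08 for FZD6, 0.28 for FZD7 and 0.32 for FZD5, where the median over the 11734 genes with several probe sets was 0.14. This spread is the highest less the lowest difference, which can only grow as probe sets are added. FZD1 and FZD6 have 2 probe sets each, FZD7 has 3 and FZD5 has 5, and the median is not matched for that number. Among the knockdown arrays, array 2 was the lowest for 6 of the 10 genes and array 1 the highest for 5.

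**Figure D3:**
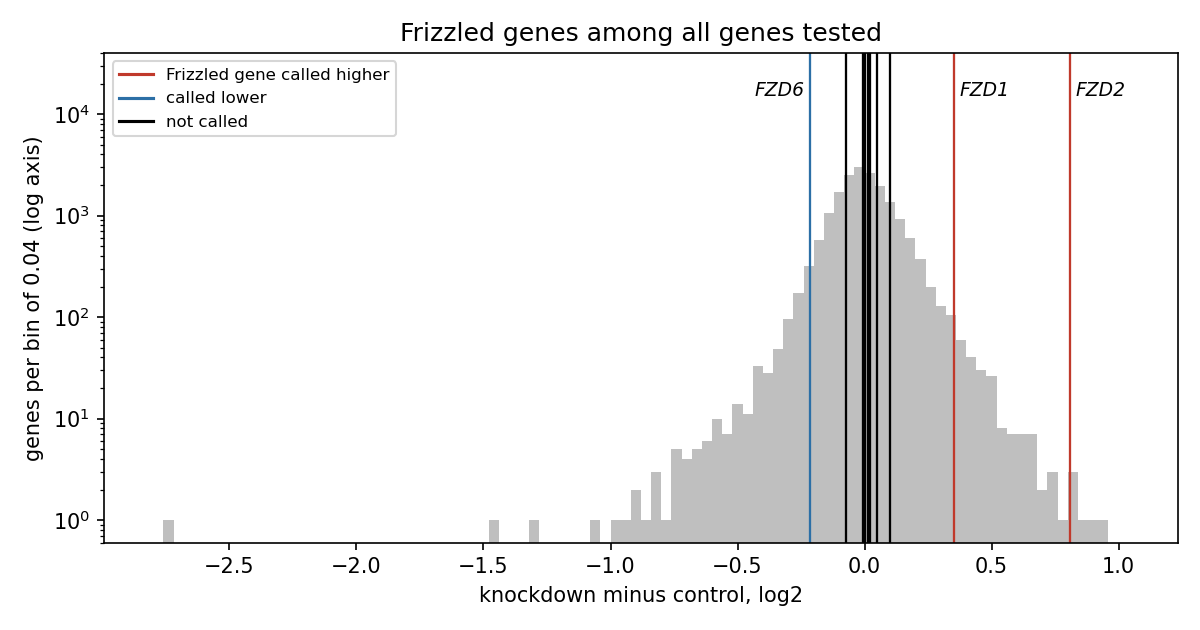
Number of genes (log axis) by knockdown minus control difference (log2, bins of 0.04) for all 18132 genes in grey, with a line at each Frizzled gene, red where called higher, blue where called lower and black where not called. FZD2 at 0.81 lies in the sparse upper tail and FZD1 at 0.35 on its shoulder, while the 7 black lines fall in the bulk of the distribution.

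The genes whose values over the 6 arrays lay closest to those of FZD2 were found by the root mean square, over the arrays, of each gene's difference from FZD2. They were RASD2, a small Ras-related GTPase, at 0.04, OLFML2B, a secreted olfactomedin-domain protein, at 0.07, the collagen chain gene COL5A1 at 0.07, DDIT4, an inhibitor of mTOR complex 1, at 0.09, and LOXL1, a collagen and elastin crosslinking enzyme, at 0.09. RASD2 read 0.47, 0.32 and 0.43 on the knockdown arrays and -0.32, -0.40 and -0.36 on the control arrays, so it followed FZD2 on every array. With 2 groups the measure mostly finds genes with a difference of the same size, here 0.66 to 0.91. Among the other Frizzled genes FZD1 was nearest, at 0.25 and number 207 of all genes, and FZD6 farthest, at 0.52.

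Promoter sequence was read from RefSeq (GRCh38.p14) for FZD1, FZD4, FZD5, FZD8 and FZD9, as the 250 bases before the annotated start. No window was read for FZD2, FZD3, FZD6, FZD7 or FZD10, so the called members FZD2 and FZD6 are not covered. PRC1.1 is known to reach unmethylated CpG-rich promoters through its subunit KDM2B, so the CpG dinucleotides are the feature shown, in capitals. FZD1, called higher, and FZD9, with a difference near 0, both lie on chromosome 7 on the plus strand, at chr7:91264183-91264432 and chr7:73433528-73433777, and are shown side by side for that reason.
FZD1: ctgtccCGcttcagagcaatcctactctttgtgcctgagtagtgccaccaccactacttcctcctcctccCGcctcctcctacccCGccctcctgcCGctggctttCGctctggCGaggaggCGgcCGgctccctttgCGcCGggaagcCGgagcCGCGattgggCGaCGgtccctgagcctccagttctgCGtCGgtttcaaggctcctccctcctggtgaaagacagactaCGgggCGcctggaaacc
FZD9: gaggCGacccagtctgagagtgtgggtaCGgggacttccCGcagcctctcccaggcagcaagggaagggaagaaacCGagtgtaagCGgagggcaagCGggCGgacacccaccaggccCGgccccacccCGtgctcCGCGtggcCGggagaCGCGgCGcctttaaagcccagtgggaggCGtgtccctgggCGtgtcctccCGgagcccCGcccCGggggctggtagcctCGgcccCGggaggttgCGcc

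The FZD1 window holds 19 CpGs with a GC content of 65.2%, and the FZD9 window 23 CpGs with 72.4%. FZD8 has 24 CpGs, FZD5 has 30 and FZD4 has 33, beside a median of 11 over 35116 promoters of the same length. All 5 windows hold more CpGs than that median, and FZD1 with the fewest of the 5 still has more than 65.4% of these promoters, FZD9 more than 74.2% and FZD4 more than 91.9%. Searched on both strands, the Sp1-type GC box GGGCGG is found 1 time in FZD1, 2 times in FZD9, 3 times in FZD8 and 6 times each in FZD4 and FZD5, and in 42.6% of all promoters. The letters CCAAT occur in 4 of the 5, all but FZD9, and in 32.0% of all promoters, and TATAAA in FZD8 only, beside 10.7%. The TCF/LEF core CTTTGA is in 0 of the 5 windows and in 11.2% of all promoters.

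The rest of the pathway was followed in 9 lists, 134 measured genes in all. In limma's fit with Benjamini-Hochberg adjustment over all genes, 15 of them were called, 10 higher and 5 lower. That share was near the background of 11% of all genes called, 6.36% higher and 4.63% lower. The counts are therefore no result about the pathway. The lists were chosen with earlier results of these data known. The adjusted p-values of their genes are therefore a description and no independent support. Among the ligands, 1 of 18 measured Wnt genes rose and 17 did not pass, with a list median of -0.06 beside -0.01 over all genes. WNT5B, a ligand mostly tied to beta-catenin-independent signalling, read 0.11, 0.22 and 0.34 on the knockdown arrays and -0.29, -0.13 and -0.29 on the control arrays. All knockdown arrays were higher, and the rise was 0.46 ± 0.07 (SE, adjusted p = 0.00617), with all 3 probe sets between 0.35 and 0.65. Its relative WNT5A, a ligand of FZD2, differed by 0.14 ± 0.05 and did not pass.

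Co-receptors rose in 3 of 9 cases, where 6.36% of all genes were called higher, and the other 6 did not pass, with a median of 0.04. LRP6, which forms the beta-catenin receptor together with a Frizzled protein, read 0.17, 0.08 and 0.18 against -0.24, -0.12 and -0.12, a rise of 0.30 ± 0.05 (SE, adjusted p = 0.00973) shared by all 3 probe sets. RECK, which presents WNT7 proteins to Frizzled receptors, rose by 0.26 ± 0.04 (adjusted p = 0.0116). Its 3 probe sets ran from 0.11 to 0.53, the last being the most variable. PTK7, a pseudokinase of planar polarity, rose by 0.15 ± 0.04 (adjusted p = 0.0446), a call that failed on leaving out each array in turn (adjusted p 0.0749 to 0.132). LRP5, the paralog of LRP6, was at -0.02, ROR1 at 0.15, ROR2 at -0.07 and RYK at 0.04, and none of these receptors passed.

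Frizzled proteins are removed from the surface by the ubiquitin ligases RNF43 and ZNRF3, which R-spondins restrain together with LGR receptors. In this list of 11 genes 1 rose and 1 fell, beside 11% of all genes called, with a median of 0.01. RSPO3, an R-spondin, read 0.20, 0.32 and 0.18 on the knockdown arrays and -0.26, -0.27 and -0.18 on the control arrays, a rise of 0.47 ± 0.05 (SE, adjusted p = 0.00158) from 1 probe set. SHISA2, which retains Frizzled proteins in the endoplasmic reticulum, fell by 0.22 (SE 0.05, adjusted p = 0.0389), and this call too failed on leaving out each array in turn (adjusted p 0.0508 to 0.119). ZNRF3 was at 0.14 ± 0.10 and RNF43 at 0.07 ± 0.05, with no call for either.

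Of 11 measured other proteins with a Frizzled-type cysteine-rich domain 1 rose, SFRP2, which binds Wnt ligands outside the cell and was also the 1 of 19 secreted antagonists that passed. Both counts stand beside 11% of all genes called. SFRP2 read 0.18, 0.39 and 0.44 on the knockdown arrays and -0.31, -0.35 and -0.18 on the control arrays, a rise of 0.62 ± 0.08 (SE, adjusted p = 0.00290) seen in both probe sets.

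**Figure D4:**
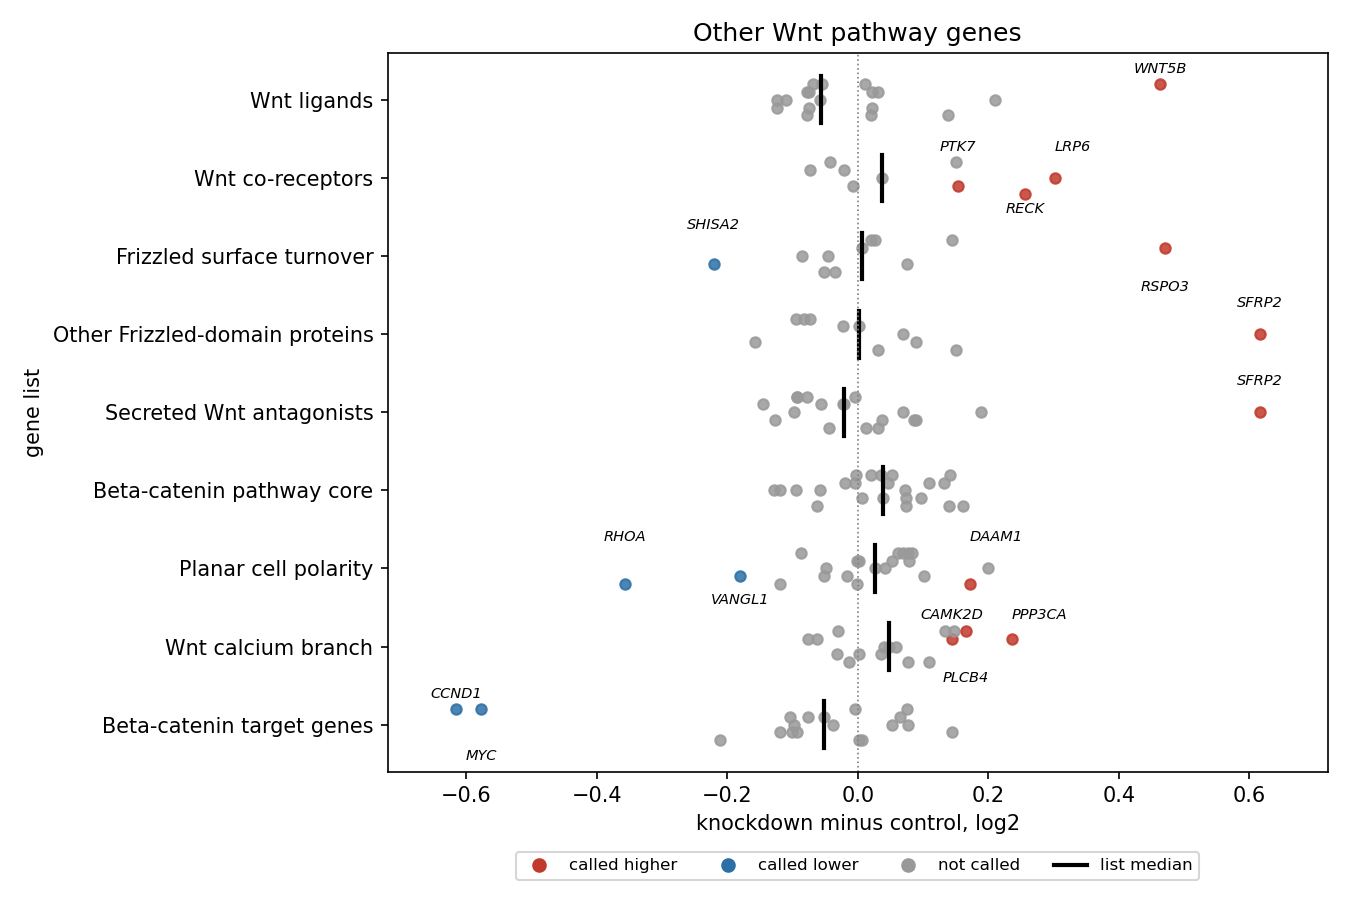
Knockdown minus control difference (log2, horizontal axis) of the other Wnt pathway genes, 1 point per gene in 9 lists, red where called higher, blue where called lower and grey where not called, with the list median as a black bar and called genes named; a gene can stand in more than 1 list. SFRP2, RSPO3, WNT5B and LRP6 are the largest rises and CCND1, MYC and RHOA the largest falls, while the list medians stay between -0.06 and 0.05.

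Inside the cell, 0 of 23 core genes of the beta-catenin pathway passed limma's test, and 5 higher and 2 lower had an unadjusted p under 0.05, near the 26.6% of all genes under that p. When each gene was read from its most variable probe set, 3 of them were called, DVL3 and BTRC higher and CSNK1A1 lower. In that reading 8.13% of all genes were called. The probe set is picked by its variance over all 6 arrays, which includes the difference between the groups. The pick therefore favours large differences, and these calls are a description only. DVL3, a Dishevelled protein that binds the Frizzled tail, was at 0.16 ± 0.05 (adjusted p = 0.0698) over 4 probe sets that ran from -0.17 to 0.56, and its most variable one differed by 0.56 (adjusted p = 0.00681). BTRC, a subunit of the ubiquitin ligase for beta-catenin, was at 0.13 on average and at 0.28 on its most variable probe set (adjusted p = 0.0261), and CSNK1A1, a casein kinase that acts on beta-catenin, at -0.06 and -0.28 (adjusted p = 0.0471). CSNK1G2, a casein kinase that acts on LRP6, was at 0.14 and CTNNB1, beta-catenin itself, at -0.02. Of 19 beta-catenin target genes 2 fell, where 4.63% of all genes were called lower. They were CCND1, by 0.62, and MYC, by 0.58 (adjusted p = 0.000635 and 0.000321), and the MYC value rests on 1 probe set. The other 17 did not pass, among them AXIN2 at 0.05.

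Of 21 planar polarity genes 1 rose and 2 fell, with a median of 0.03, where 6.36% of all genes were called higher and 4.63% lower. RHOA, the small GTPase downstream of Frizzled and Dishevelled, read -0.18, -0.16 and -0.21 on the knockdown arrays and 0.19, 0.17 and 0.15 on the control arrays, and fell by 0.36 (SE 0.04, adjusted p = 0.00134) with all 5 probe sets lower. In the calcium branch 3 of 17 genes rose, beside the same 6.36%, and 14 did not pass, with a median of 0.05. PPP3CA, a calcineurin catalytic subunit, rose by 0.24 ± 0.05 (adjusted p = 0.0168), a call that held without knockdown array 2 or control array 2 and failed without any other single array (adjusted p 0.0262 to 0.0626). The other calls of both lists were VANGL1, a polarity membrane protein, which fell by 0.18 (adjusted p = 0.0465), and DAAM1, a formin, PLCB4, a phospholipase C, and CAMK2D, a calcium-dependent kinase, which rose by 0.17, 0.17 and 0.14 (adjusted p = 0.0407, 0.0375 and 0.0477). Each of these 4 calls failed on leaving out each array in turn (adjusted p up to 0.137), except that VANGL1 held without control array 1 (adjusted p = 0.0382). On the most variable probe set VANGL1 was at -0.44 and PLCB4 at 0.36. The probe sets of VANGL1 ran from -0.44 to -0.05 and those of PLCB4 from -0.04 to 0.36.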

How the data were processed

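The deposited table holds 1 log2 value per probe set and array. RMA is named, without a version, in the submitters' processing notes. The authors' values were found centred, each probe set having a median of 0 over the 6 arrays (largest departure 4.85e-07). The log base is taken from RMA, and folds rest on it. Of 49395 probe sets, 102 controls were left out. In the platform annotation 44988 had 1 gene symbol, 1832 several and 2473 none. A gene's value was the mean of its single-symbol probe sets, for 18132 genes.

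Knockdown and control arrays were compared with limma 3.58.1 in R 4.3.3 (lmFit, eBayes, two-sided, no covariates), with Benjamini-Hochberg adjustment over all genes and calls at an adjusted p under 0.05. The script was tested on simulated data. The number of arrays limits precision. Members and lists were chosen with earlier results of these data known. Named besides the members and PCGF1 are up to 3 risen and 3 fallen called genes per list by size, or the 2 largest differences where none was called, and the 5 genes nearest to FZD2. Other genes, the promoter motifs and the grouping of relatives were chosen after values were seen. List members without a single-symbol probe set were not analysed here. Same-numbered arrays of the 2 groups were checked for pairing. Alternatives were other normalizations, probe set rules, array weights, robust eBayes, the replicate number as a block and leaving out each array.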

Additional observations from a re-analysis of the deposited data

How the results depend on the processing

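Over the 13 gene-level alternatives the differences of FZD1, FZD2 and FZD6 ranged from 0.30 to 0.39, 0.76 to 0.87 and -0.25 to -0.20. These refits use the same 6 arrays on which the family was chosen, so that 3 members were called in each, and 4 Frizzled probe sets as single probe sets, is a description only. FZD3, FZD7, FZD9 and FZD10 changed sign under 5, 1, 2 and 5 of them, and no other member did. The highest FZD5 value, 0.18, came from its most variable probe set. The number of genes called over the whole table fell from 1994 to between 980 and 1402 when 1 array was left out and to 1036 with the replicate block, and 3339 single probe sets were called. The deviations of same-numbered arrays correlated at -0.04, -0.05 and 0.01, so the numbers share no visible pairing. With the replicate block the calls of PTK7 (adjusted p = 0.0914), SHISA2 (0.0546), DAAM1 (0.0727), VANGL1 (0.110), PPP3CA (0.0603), PLCB4 (0.0995) and CAMK2D (0.111) were lost. Leaving out _s_at and _x_at probe sets ended the calls of PTK7, SHISA2, DAAM1, VANGL1, PLCB4 and CAMK2D. Of these, only PLCB4 changed its difference, from 0.17 to 0.15. The others kept theirs unchanged, and their SE and adjusted p rose with the refit over all genes. Taking the most variable probe set ended the calls of PTK7, SHISA2, DAAM1, PLCB4 and CAMK2D. DAAM1 has 1 probe set, so only its SE and adjusted p changed. In that reading SHISA2 (-0.31), PLCB4 (0.36) and CAMK2D (0.17) had larger differences than on average and PTK7 nearly the same (0.15), all with larger SEs. The most variable probe set also gave calls that the average did not, DVL3, BTRC and CSNK1A1 in the beta-catenin core (3 called in place of 0), PRICKLE2 (0.29), NFATC2 (0.37) and NFATC4 (-0.29), while 8.13% of all genes were called. That probe set is picked by a variance that includes the difference between the groups, so these added calls are a description only. CELSR2 (adjusted p = 0.0532) was called with array weights, without _s_at and _x_at probe sets and without knockdown array 2. Robust eBayes ended only the CAMK2D call among the named genes (adjusted p = 0.0500313). Single probe sets give no value per gene and no family median. Signal over background is unknown for every probe set, and its part in small differences was not tested.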
